A study of Bos taurus with 12 samples.

Results

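The transcripts of 39 enzymes that carry glucose to pyruvate and lactate, pass pyruvate into the mitochondrion and turn the citric acid cycle were followed in bovine endometrium. All probe sets that the array annotation ties to the symbol of 1 of these enzymes were taken, whatever their values. Of the 39 symbols, 35 had a probe set. They had 60 of the 24128 probe sets of the array, and 57 of these were fitted, since 3 are manufacturer's control probe sets for GAPDH. HK2, MDH1, DLST and IDH3B had no probe set under their symbol and were not analysed here. The 35 genes divide into 15 of glycolysis and lactate, 8 of pyruvate entry and its control, and 12 of the citric acid cycle with its cytosolic partners.

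Endometrial cells had been brushed from the uterus of cyclic, estrous-synchronized Simmental heifers on day 3 or day 7 of the cycle that preceded the transfer of an in vitro-produced blastocyst. Heifers with an embryo seen by ultrasound after the transfer formed the high receptivity group (HR) and those without one the low receptivity group (LR), so receptivity was assigned after sampling and none of the samples comes from a uterus that held an embryo. The brush passed the vagina and cervix inside a catheter. The sources used here name no treatment beyond the synchronization, and give neither the age of the heifers, nor which heifers went into which pool, nor whether a pool of day 3 and a pool of day 7 held the same animals. RNA of 5 samples made 1 pool, 1 pool was hybridized to 1 GeneChip Bovine Genome Array, and there were 3 pools in each of HR3, LR3, HR7 and LR7. P-values therefore measure the spread between pools, in which differences between heifers are already averaged.

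Glycolysis splits glucose into pyruvate in the cytosol, and its hexokinase, phosphofructokinase and pyruvate kinase steps are its points of control. Pyruvate is reduced to lactate by lactate dehydrogenase or enters the mitochondrion, where the pyruvate dehydrogenase complex makes acetyl-CoA from it and pyruvate carboxylase makes oxaloacetate. Pyruvate dehydrogenase kinases switch the complex off by phosphorylation, and citrate synthase, isocitrate dehydrogenase and oxoglutarate dehydrogenase set the pace of the cycle. In the uterus these pathways serve the epithelium, which secretes under progesterone, and glucose, lactate and pyruvate of the uterine fluid are fuels of the embryo before it attaches.

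All values are log2 PLIER signals as deposited, so a difference of 1 is a doubling. The brightest probe set of a gene, judged over all 12 pools, stands for the gene. Levels were not ranked between genes, because probe sets differ in how strongly they bind, and the differences given below for pairs of genes only follow a pair over the pools. Of the 35 genes, 34 lay above the array median in all 12 pools, and PFKP, the platelet form of phosphofructokinase, did so in 4. "Rose" and "fell" are used for an adjusted p under 0.05 in limma across all 24016 fitted probe sets, with the Benjamini-Hochberg adjustment.

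From day 3 to day 7, over HR and LR together, 14 of the 35 genes rose, 3 fell and 18 did not pass. In the same comparison 12.5% of all 24016 probe sets passed as higher and 14.0% as lower, and among the 12005 brighter probe sets, which include 34 of the members, 17.1% and 19.1%. The median change of the 35 genes was 0.28 on the log2 scale and that of all probe sets -0.04. The genes that rose came from every stage, namely 5 of 15 in glycolysis (ALDOA, GPI, LDHB, PGK1 and LDHA), 3 of 8 at pyruvate entry (PC, DLD and PDHB) and 6 of 12 in the cycle (OGDH, IDH2, ACO1, SUCLA2, CS and IDH1). The genes that fell were PDK4, PDK2 and PFKL. In the cycle all 12 estimates lay above 0. The 6 pools of day 7 lay wholly above the 6 pools of day 3 in 11 members, against 7.24% of all probe sets, and wholly below them in 1, against 7.08%.

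**Figure D1:**
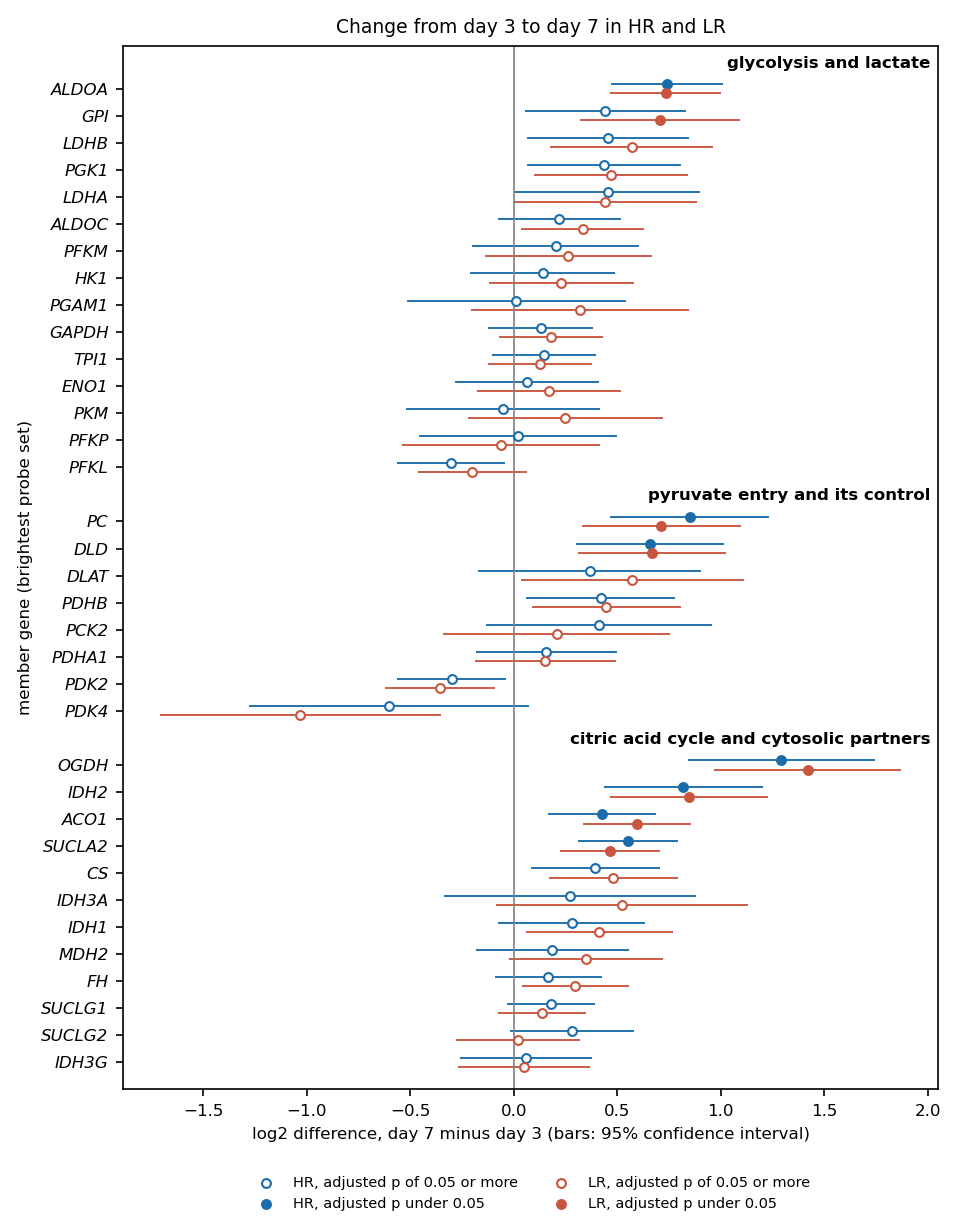
Change from day 3 to day 7 for each of the 35 genes, as the log2 difference of day 7 minus day 3 on the horizontal axis with its 95% confidence interval, in HR (blue) and LR (red), with filled points for an adjusted p under 0.05. In the cycle every estimate lies to the right of 0, and OGDH stands farthest out at 1.29 in HR and 1.42 in LR, whereas PDK2, PDK4 and PFKL lie to the left in both.

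OGDH, the decarboxylating subunit of oxoglutarate dehydrogenase, had the largest change of the 35 genes. Its signal lay in HR3 at 9.96, 10.06 and 10.06 and in LR3 at 10.18, 10.45 and 9.92. It lay in HR7 at 11.35, 11.44 and 11.17 and in LR7 at 11.74, 11.93 and 11.14. The lowest pool of day 7, LR7 pool 3, thus lay above the highest of day 3, LR3 pool 2. OGDH rose by 1.36 (SE 0.14, adjusted p = 0.000262), which is 2.56-fold. It rose in HR by 1.29 (adjusted p = 0.00527) and in LR by 1.42 (adjusted p = 0.00381).

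IDH2, the mitochondrial NADP-linked isocitrate dehydrogenase, rose next most in the cycle. Its pools lay in HR3 at 10.81, 10.73 and 11.00, in LR3 at 11.10, 11.08 and 10.67, in HR7 at 11.71, 11.76 and 11.53, and in LR7 at 11.97, 11.96 and 11.46. The days did not overlap, and the change was 0.83 (SE 0.12, adjusted p = 0.00121), or 1.78-fold. The cytosolic counterpart IDH1 had 10.76 ± 0.18 (SD, n = 3) in HR3, 10.92 ± 0.08 in LR3, 11.04 ± 0.19 in HR7 and 11.33 ± 0.27 in LR7. IDH1 rose by 0.35 (SE 0.11, adjusted p = 0.0464), but its days overlapped, and the call was lost in 10 of the 12 fits that each left out 1 pool, all but those without HR7 pool 1 or LR7 pool 3, with adjusted p from 0.0164 to 0.105. The difference between the IDH2 and IDH1 signals of a pool averaged 0.09 in HR3, 0.03 in LR3, 0.63 in HR7 and 0.47 in LR7. The lowest such difference at day 7 was 0.42, and the highest at day 3 was 0.25. The NAD-linked enzyme that drives the cycle itself did not pass, with 0.40 for its catalytic subunit IDH3A (SE 0.19, adjusted p = 0.158) and 0.06 for its subunit IDH3G (adjusted p = 0.730). IDH3A was spread widely among pools, from 7.70 in LR3 pool 1 to 9.24 in LR7 pool 1.

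At the succinyl-CoA step 1 of 3 subunits rose. SUCLA2, the subunit that makes the enzyme form ATP, lay in HR3 at 9.64, 9.55 and 9.50, in LR3 at 9.64, 9.68 and 9.62, in HR7 at 9.95, 10.11 and 10.29, and in LR7 at 10.18, 10.00 and 10.15. Its days were apart, and it rose by 0.51 (SE 0.077, adjusted p = 0.00141). SUCLG2, the subunit of the GTP-forming enzyme, changed by 0.15 (adjusted p = 0.278), and SUCLG1, the subunit shared by both, by 0.16 (adjusted p = 0.111). The SUCLA2 minus SUCLG2 difference lay between -1.92 and -1.47 in the pools of day 3 and between -1.43 and -1.12 in those of day 7. No test was made of differences between members.

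CS, citrate synthase, which opens the cycle, rose by 0.44 (SE 0.099, adjusted p = 0.0102), from 10.30 ± 0.12 in HR3 and 10.26 ± 0.21 in LR3 to 10.69 ± 0.14 in HR7 and 10.74 ± 0.16 in LR7 (SD, n = 3). ACO1, the cytosolic aconitase that also acts as an iron-responsive RNA-binding protein, rose by 0.51 (SE 0.083, adjusted p = 0.00203). Its pools ran from 9.33 to 9.73 at day 3 and from 9.94 to 10.20 at day 7. For FH, fumarase, the change was 0.23 (adjusted p = 0.0620), and for MDH2, the mitochondrial malate dehydrogenase, 0.27 (adjusted p = 0.121), neither of which passed.

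**Figure D2:**
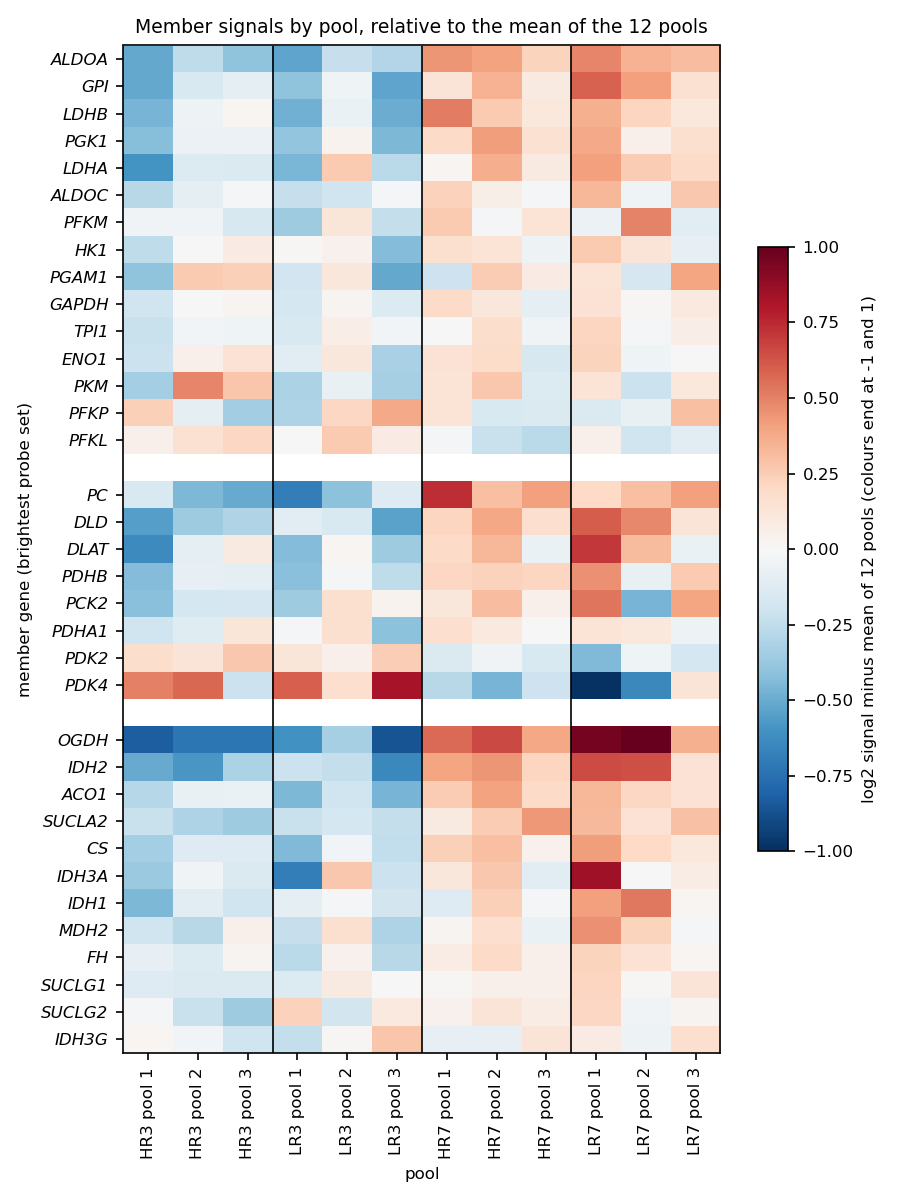
Signal of the 35 genes in the 12 pools, as log2 signal minus the mean of the 12 pools for that gene (red above, blue below, colors end at -1 and 1), with genes grouped by stage from glycolysis at the top to the citric acid cycle at the bottom. The columns of day 7 are mostly red and those of day 3 mostly blue, with the rows of PDK2, PDK4 and PFKL the other way.

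In glycolysis ALDOA, the main aldolase of most tissues, had the largest estimate. It lay in HR3 at 11.17, 11.43 and 11.28, in LR3 at 11.15, 11.45 and 11.39, in HR7 at 12.12, 12.08 and 11.90, and in LR7 at 12.17, 12.03 and 11.99. The highest pool of day 3 was at 11.45 and the lowest of day 7 at 11.90, and the change was 0.74 (SE 0.085, adjusted p = 0.000403), or 1.67-fold. GPI, which converts glucose 6-phosphate to fructose 6-phosphate, rose by 0.58 (SE 0.12, adjusted p = 0.00786). PGK1, which makes the first ATP of the pathway, rose by 0.45 (SE 0.12, adjusted p = 0.0189). The days of GPI and PGK1 were apart too, those of PGK1 narrowly, with 10.63 in LR3 pool 2 and 10.65 in LR7 pool 2.

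None of the members at the regulated steps of glycolysis (HK1, PKM, PFKL, PFKM and PFKP) rose. HK3, a hexokinase that is not a member, did rise and is given below. HK1, the hexokinase that traps glucose in the cell, changed by 0.19 (SE 0.11, adjusted p = 0.253). PKM, pyruvate kinase, changed by 0.10 (SE 0.15, adjusted p = 0.663), with its highest pool in HR3 (8.46). PFKL, the liver form of phosphofructokinase, lay in HR3 at 10.43, 10.53 and 10.59, in LR3 at 10.38, 10.64 and 10.46, in HR7 at 10.37, 10.16 and 10.11, and in LR7 at 10.43, 10.18 and 10.27. HR7 lay below HR3, whereas LR7 overlapped LR3. PFKL fell by 0.25 (SE 0.083, adjusted p = 0.0486), which is 1.19-fold, and the call was lost in 9 of the 12 fits that left out 1 pool, all but those without LR3 pool 1, HR7 pool 1 or LR7 pool 1 (adjusted p from 0.0390 to 0.105). PFKM, the muscle form, changed by 0.23 (adjusted p = 0.209) and PFKP by -0.02 (adjusted p = 0.934). The remaining glycolytic genes ALDOC, TPI1, GAPDH, PGAM1 and ENO1 had estimates from 0.12 to 0.28 and did not pass.

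Lactate dehydrogenase interconverts pyruvate and lactate, with A subunits that predominate in glycolytic tissue and B subunits that predominate in heart. LDHB lay in HR3 at 11.34, 11.76 and 11.83, in LR3 at 11.33, 11.74 and 11.31, in HR7 at 12.32, 12.07 and 11.91, and in LR7 at 12.16, 12.02 and 11.91, and rose by 0.51 (SE 0.12, adjusted p = 0.0137). LDHA rose by 0.45 (SE 0.14, adjusted p = 0.0411) in its brightest probe set, which was lowest in HR3 pool 1 (11.42) and reached 12.28 in LR3 pool 2, above 4 of the 6 pools of day 7 (12.04, 12.11, 12.21 and 12.27). The call for LDHA was lost in 11 of the 12 fits that left out 1 pool, all but that without LR3 pool 2, with adjusted p from 0.0115 to 0.0945. The other probe sets of LDHA changed by 0.00 and 0.01 (adjusted p = 0.976 and 0.968), so the rise rests on the brightest alone. The LDHA minus LDHB difference ranged from 0.04 to 0.54 at day 3 and from -0.28 to 0.31 at day 7, and the days overlapped.

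GAPDH, the dehydrogenase that is often used as a reference gene and served as 1 of the reference genes of the study's PCR assays, changed by 0.16 (SE 0.080, 95% confidence interval -0.02 to 0.33, adjusted p = 0.184). Its pools lay in HR3 at 12.03, 12.22 and 12.25, in LR3 at 12.05, 12.25 and 12.09, in HR7 at 12.42, 12.34 and 12.13, and in LR7 at 12.37, 12.24 and 12.32. The days overlapped. The manufacturer's 3' control probe set for GAPDH gave means of 12.51 in HR3, 12.59 in LR3, 12.69 in HR7 and 12.74 in LR7, and the 5' one 11.91, 11.77, 12.04 and 12.08. The primers by which the study measured GAPDH are shown because this is the member used to scale other transcripts, and they are given 5' to 3' with no base set apart.
GAPDH forward primer: acccagaagactgtggatgg
GAPDH reverse primer: caacagacacgttgggagtg

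At pyruvate entry PC, DLD and PDHB rose, and the kinases PDK4 and PDK2, which block the oxidation of pyruvate, fell. PC, pyruvate carboxylase, which replenishes oxaloacetate, lay in HR3 at 8.31, 8.01 and 7.96, in LR3 at 7.77, 8.05 and 8.33, in HR7 at 9.20, 8.76 and 8.87, and in LR7 at 8.66, 8.76 and 8.87. The lowest pool of day 7 (8.66) lay above the highest of day 3 (8.33), and PC rose by 0.78 (SE 0.12, adjusted p = 0.00164), or 1.72-fold. DLD, the lipoamide dehydrogenase that the pyruvate and oxoglutarate dehydrogenase complexes share, rose by 0.66 (SE 0.11, adjusted p = 0.00262). Its pools lay between 8.93 and 9.38 at day 3 and between 9.61 and 10.09 at day 7.

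Among the subunits proper to pyruvate dehydrogenase, PDHB rose by 0.43 (SE 0.11, adjusted p = 0.0199), and lay in HR7 at 9.50, 9.52 and 9.51 and in LR7 at 9.75, 9.22 and 9.55, of which LR7 pool 2 fell within the range of day 3. PDHA1, the subunit that the kinases phosphorylate, changed by 0.16 (SE 0.11, 95% confidence interval -0.09 to 0.40, adjusted p = 0.327). The brightest probe set of DLAT, the acetyltransferase core, changed by 0.47 (adjusted p = 0.0687), while its second probe set rose by 0.50 (adjusted p = 0.0185). PCK2, the mitochondrial phosphoenolpyruvate carboxykinase, changed by 0.31 (adjusted p = 0.218).

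PDK4, the kinase of the complex that is induced by fasting in rodents, lay in HR3 at 8.51, 8.58 and 7.79, in LR3 at 8.60, 8.17 and 8.83, in HR7 at 7.73, 7.54 and 7.80, and in LR7 at 7.02, 7.36 and 8.13. HR3 pool 3 was as low as the HR7 pools, and LR7 pool 3 stood well above the other LR7 pools. PDK4 fell by 0.82 (SE 0.21, adjusted p = 0.0196), or 1.76-fold. Its other probe sets had -0.58 (adjusted p = 0.0361) and -0.45 (adjusted p = 0.101). PDK2, the most widely expressed kinase of the family, lay in HR3 at 8.12, 8.07 and 8.21, in LR3 at 8.06, 7.99 and 8.19, in HR7 at 7.80, 7.91 and 7.79, and in LR7 at 7.50, 7.90 and 7.77. Every pool of day 7 lay below every pool of day 3, and PDK2 fell by 0.33 (SE 0.084, adjusted p = 0.0172), or 1.26-fold. The difference between the PDHA1 and PDK4 signals averaged 2.50 in HR3, 2.24 in LR3, 3.26 in HR7 and 3.42 in LR7, with overlap of the days through HR3 pool 3 (3.19) and LR7 pool 3 (2.68).

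**Figure D3:**
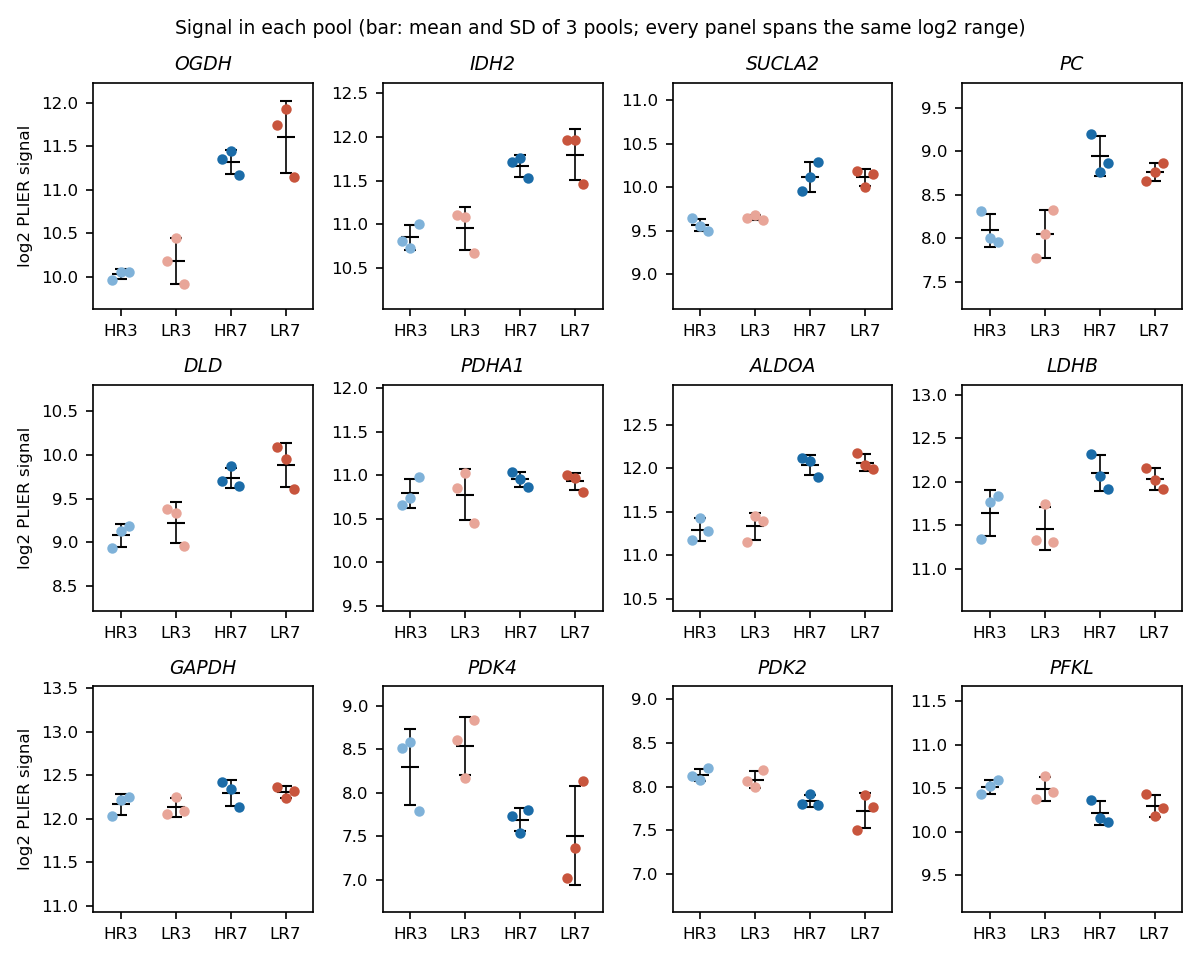
Log2 PLIER signal of 12 genes in each of the 3 pools of HR3, LR3, HR7 and LR7, with bars for the mean and SD, and with vertical axes that start at different values and span the same range. OGDH, IDH2, SUCLA2, PC, DLD, ALDOA and LDHB are higher in all day 7 pools than in all day 3 pools, PDK2 is lower, GAPDH and PDHA1 overlap, and in PDK4 LR7 pool 3 (8.13) stands apart from the other LR7 pools.

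Other probe sets of some members disagreed with the brightest. FH and IDH1 each had a dimmer probe set that rose more, by 0.59 (adjusted p = 0.0330) and 0.64 (adjusted p = 0.0127), while a further IDH1 probe set changed by 0.19 (adjusted p = 0.132) and the second CS probe set by 0.18 (adjusted p = 0.450), neither of which passed. A dim probe set of PDHB, with pools from 4.71 to 5.69 and so below the array medians of 6.64 to 6.77, fell by 0.39 (adjusted p = 0.0364), opposite to the brightest. A dim probe set of SUCLA2 scattered from 0 to 4.22. Over all 57 fitted probe sets 17 rose and 5 fell. When probe sets of 1 gene were averaged instead of taking the brightest, the calls over both groups were lost for SUCLA2 (0.18, adjusted p = 0.736), PC (0.43, adjusted p = 0.167), LDHA (0.15, adjusted p = 0.184) and CS (0.31, adjusted p = 0.0600), and PDHB turned to -0.44 (adjusted p = 0.218).

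Within HR, 7 of the 35 genes rose and none fell, where 5.74% of all probe sets passed as higher and 5.44% as lower. At an unadjusted p under 0.05, PFKL and PDK2 were lower in HR. Within LR, 8 rose and none fell, where 6.24% of all probe sets passed as higher and 5.21% as lower. PDK4 and PDK2 were lower in LR at an unadjusted p under 0.05. Among the 12005 brighter probe sets the shares were 8.08% and 7.69% in HR and 8.73% and 7.45% in LR. OGDH, PC, IDH2, ALDOA, DLD, SUCLA2 and ACO1 rose in both, and GPI passed in LR alone, which does not show that the change of GPI differed between the groups (interaction -0.26, 95% confidence interval -0.81 to 0.29, adjusted p = 0.9998). At an unadjusted p under 0.05 the numbers were 15 in HR and 18 in LR in either direction, against 27.2% and 28.4% of all probe sets. The median change of the 35 genes was 0.27 in HR and 0.33 in LR, and that of all probe sets was -0.04 in both. HR and LR share no pool, but the spread was estimated from all 12 pools, so the calls in HR and in LR are not independent. The estimates of 30 genes were above 0 in both groups and those of PDK4, PDK2 and PFKL below 0 in both, while PKM (-0.05 in HR, 0.25 in LR) and PFKP (0.02 in HR, -0.06 in LR) had opposite signs. HR7 lay wholly above HR3 in 18 genes (16.1% of all probe sets) and wholly below in 2 (18.6%), and LR7 lay wholly above LR3 in 12 (14.6%) and wholly below in 2 (15.7%).

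The sizes of genes that passed are given side by side. PC rose by 0.85 in HR (adjusted p = 0.0150) and 0.71 in LR (adjusted p = 0.0276). ALDOA rose by 0.74 (adjusted p = 0.00625) and 0.73 (adjusted p = 0.00666), and DLD by 0.66 (adjusted p = 0.0286) and 0.67 (adjusted p = 0.0272). ACO1 rose by 0.43 in HR (adjusted p = 0.0445) and 0.60 in LR (adjusted p = 0.0130), and GPI had 0.44 in HR (adjusted p = 0.134) and 0.71 in LR (adjusted p = 0.0298). PDK4 had -0.60 in HR (adjusted p = 0.235) and -1.03 in LR (adjusted p = 0.0552). These counts rest on few pools. In the 12 fits that each left out 1 pool, OGDH and ALDOA kept their calls in HR and in LR. In HR the call was lost in 10 fits for ACO1, 6 for DLD, 4 for IDH2, 3 for PC and 0 for SUCLA2. In LR it was lost in 5 for PC, 5 for SUCLA2, 4 for GPI, 3 for DLD, 2 for IDH2 and 1 for ACO1. The 7 of HR became 4 without HR3 pool 1, 3 without HR3 pool 2, 4 without HR3 pool 3, 3 without HR7 pool 1 and 4 without HR7 pool 2, and the 8 of LR became 5 without LR3 pool 1 or pool 3, 2 without LR7 pool 1 and 4 without LR7 pool 2. The calls over all probe sets fell as well, from 2686 in HR to 1493, 1216, 1407, 1367 and 1009 in those fits, and from 2749 in LR to 1410, 2289, 1163 and 1533.

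Of 5 spiked controls of the target preparation, dap, thr, lys and trpn differed between the days without overlap in LR, phe overlapped, and all 5 overlapped in HR. The 5' minus 3' log2 difference of the spiked dap transcript was -2.83, -2.42 and -2.59 in LR3 and -1.45, -1.28 and -1.76 in LR7, without overlap. In HR3 it was -2.64, -1.53 and -1.37 and in HR7 -2.36, -1.86 and -1.54, with overlap. The thr control also differed between LR3 (-3.42 to -3.13) and LR7 (-2.51 to -2.02), while lys (-0.33 to -0.12 and -1.15 to -0.65) and trpn (0.52 to 0.74 and 0.09 to 0.47) differed the other way. For the animals' own actin the difference was -0.62, -0.10 and 0.55 in LR3 against -1.53, -1.01 and -0.62 in LR7, and 0.17, -0.22 and -0.86 in HR3 against -0.30, -0.77 and -1.16 in HR7. That of their own GAPDH lay between -0.92 and -0.44 and overlapped in both groups. With the dap difference as a covariate, 7 genes still rose in HR, none rose in LR, and over both groups 7 rose (OGDH, IDH2, PC, ALDOA, DLD, ACO1 and SUCLA2) and none fell. Of all 24016 probe sets, 2395 passed in HR in place of 2686 and only 26 in LR in place of 2749. Over both groups 3293 passed in place of 6360. The loss in LR was thus that of nearly the whole table under this covariate. The estimates in LR stayed above 0 with it, at 1.23 for OGDH (adjusted p = 0.144), 0.996 for PC (adjusted p = 0.137), 0.76 for IDH2 (adjusted p = 0.263) and 0.64 for ALDOA (adjusted p = 0.185), and GPI went from 0.71 to 0.37 (adjusted p = 0.514). A fit of the LR pools alone leaves the estimates as they are, with fewer pools to judge the spread. It also gave 0 in LR (adjusted p = 0.0571 for OGDH), where 405 of all probe sets passed in place of 2749. The HR pools alone are as few, but there OGDH (adjusted p = 0.00645), IDH2, ALDOA, DLD and PC kept their calls. SUCLA2 (adjusted p = 0.0518) and ACO1 (adjusted p = 0.0823) lost theirs in limma, and 2055 of all probe sets passed in place of 2686.

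Between HR and LR none of the 35 genes passed, whether at day 3, at day 7 or over both days, and none passed the interaction of receptivity and day. Of all probe sets 0.00416% passed at day 3, 0.00833% at day 7, 0.00416% over the days together and 0.00416% in the interaction. At an unadjusted p under 0.05 the number of members was also 0 in each, where 6.80%, 3.82%, 6.16% and 4.04% of all probe sets passed, and an ordinary linear model gave 0 of the 35 after adjustment too. In the brightest probe set of no member did the pools of HR and LR separate on either day or over both, where HR lay wholly above LR in 5.63% of all probe sets on day 3, in 4.59% on day 7 and in 0.0833% over the days together, and wholly below in 4.61%, 3.56% and 0.0708%. Among all 57 member probe sets HR lay wholly above LR in 2 on day 3 and in 2 on day 7, and wholly below in 1 on day 3. Among them was the second LDHA probe set on day 7, at 10.87, 10.84 and 10.91 in HR7 and 10.65, 10.67 and 10.75 in LR7 (difference 0.18, adjusted p = 0.9998). The median difference of HR minus LR over the 35 genes was 0.02 at day 3 and -0.03 at day 7, beside 0.02 and 0.01 for all probe sets.

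The lowest p at day 3 belonged to ACO1, with in HR3 at 9.51, 9.72 and 9.73 and in LR3 at 9.35, 9.60 and 9.33. The difference was 0.23 (95% confidence interval -0.04 to 0.49, adjusted p = 0.749), and the pools overlapped. After it came SUCLG2 (-0.24, adjusted p = 0.762), PKM (0.38, adjusted p = 0.762), SUCLG1 (-0.12, adjusted p = 0.828) and LDHB (0.18, adjusted p = 0.859). PKM in HR3 was 7.63, 8.46 and 8.25, so pool 1 lay with the LR3 pools at 7.66, 7.90 and 7.64.

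At day 7 the lowest p belonged to IDH1, with in HR7 at 10.88, 11.25 and 10.99 and in LR7 at 11.42, 11.54 and 11.03. The difference was -0.29 (95% confidence interval -0.65 to 0.07, adjusted p = 0.9998). OGDH (-0.28), GPI (-0.19), MDH2 (-0.18) and PC (0.18) followed, all with an adjusted p of 0.9998. Over both days the 5 genes with the lowest p were IDH1 (-0.22, adjusted p = 0.815), ACO1 (0.14, adjusted p = 0.823), PKM (0.23, adjusted p = 0.833), OGDH (-0.22, adjusted p = 0.833) and SUCLG1 (-0.10, adjusted p = 0.834). In the interaction they were SUCLG2 (0.26), GPI (-0.26), ACO1 (-0.17), PKM (-0.30) and PDK4 (0.43), each with an adjusted p of 0.9998. The interval was widest for PDK4, at -0.53 to 1.38, so an interaction as large as its change between the days lay inside it.

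**Figure D4:**
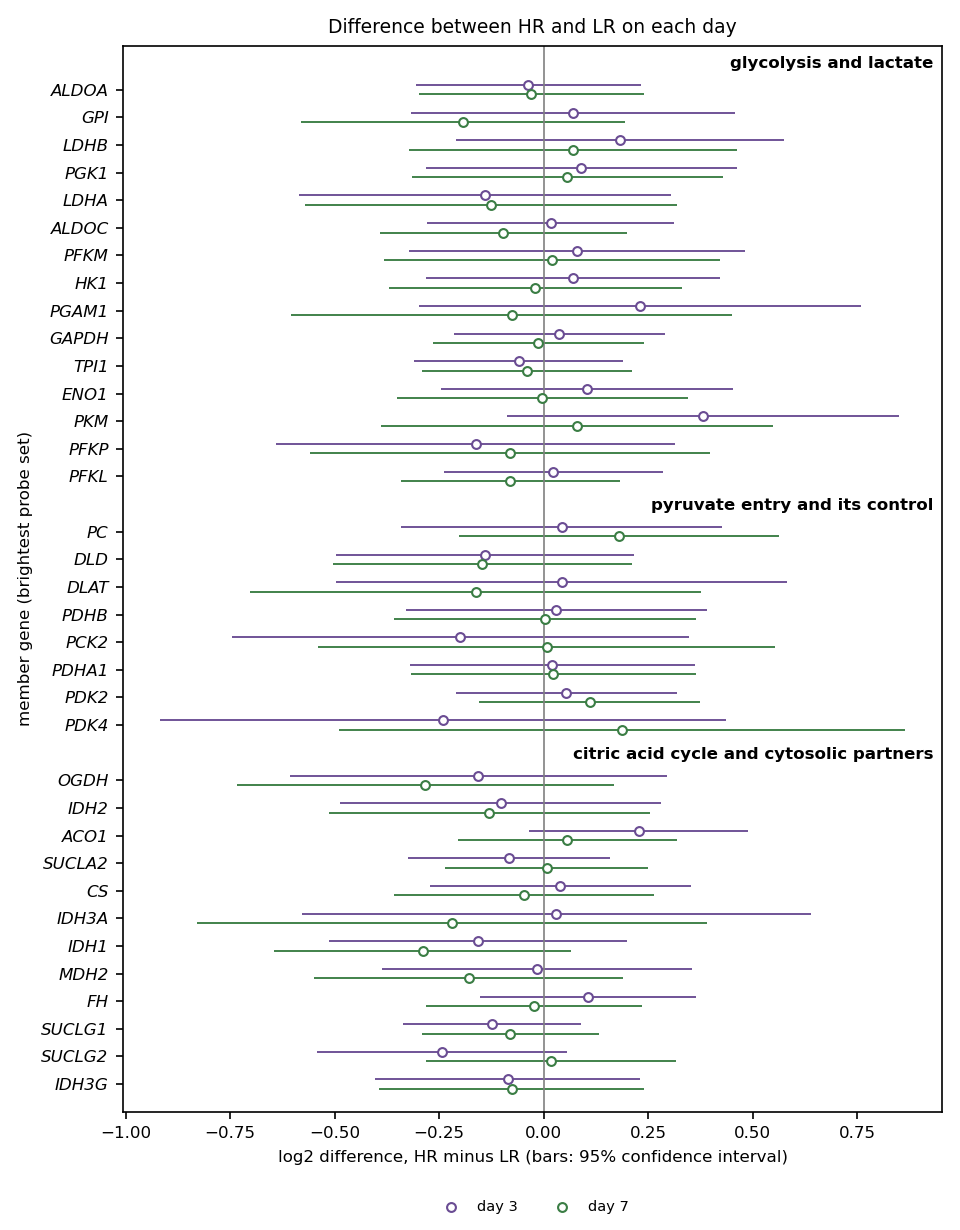
Difference between HR and LR for each of the 35 genes, as log2 HR minus LR with its 95% confidence interval on the horizontal axis, at day 3 (purple) and day 7 (green). Every interval includes 0, and the estimates run from -0.24 to 0.38 at day 3 and from -0.29 to 0.19 at day 7.

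Within the groups, pools stood high or low in many members at once. LR3 pool 2 was the highest of its group in 26 of the 35 genes and LR7 pool 1 in 26, while HR3 pool 1 was the lowest of its group in 23 and HR7 pool 3 in 23. The median SD of the members over 3 pools was 0.17 in HR3, 0.24 in LR3, 0.14 in HR7 and 0.17 in LR7, and the SD of PDK4 was the highest in HR3 (0.44) and LR7 (0.57).

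Neighboring genes of the same pathways were counted over both groups from lists of enzymes and carriers that are not members. Beside these counts, 12.5% of all probe sets rose and 14.0% fell in that comparison, and 17.1% and 19.1% of the brighter ones. The lists are short and were not tested as sets. Among the 6 measured genes of pyruvate entry, 2 rose and 2 fell. MPC1, a subunit of the mitochondrial pyruvate carrier, lay in HR3 at 7.69, 7.73 and 7.47, in LR3 at 7.24, 7.78 and 8.01, in HR7 at 8.40, 8.79 and 8.54, and in LR7 at 8.71, 8.63 and 8.59, and rose by 0.96 (adjusted p = 0.00092). PDHX, which binds DLD into the pyruvate dehydrogenase complex, rose by 0.30 (adjusted p = 0.0228). PDK3, a further kinase of the complex, fell by 0.70 (adjusted p = 0.00159) and PDP1, the phosphatase that reverses the kinases, fell by 0.50 (adjusted p = 0.000736). The measured kinases PDK2, PDK3 and PDK4 and this phosphatase thus all fell, while PDK1 and PDP2 had no probe set under their symbol. With the dap covariate the falls of PDK2 and PDK4 did not pass in limma (adjusted p = 0.0724 and 0.149).

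Of 15 genes of the cycle's other steps and branches, 8 rose and 1 fell. GLUD1, which converts glutamate to oxoglutarate, lay in HR3 at 9.85, 9.75 and 9.82, in LR3 at 9.87, 9.99 and 9.88, in HR7 at 11.40, 11.40 and 11.03, and in LR7 at 11.69, 11.36 and 10.91. The days were far apart, and GLUD1 rose by 1.44 (adjusted p = 0.000125). All 4 succinate dehydrogenase subunits rose, SDHA by 0.49, SDHB by 0.43, SDHC by 0.27 and SDHD by 0.39. SLC25A11, the carrier that exchanges oxoglutarate for malate, rose by 0.60, and ME1, the cytosolic malic enzyme, fell by 0.63.

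Of 13 genes of glucose entry and glycolysis outside the 35, 4 rose and none fell. PFKFB2, which makes and removes the bisphosphate that activates phosphofructokinase, lay in HR3 at 8.97, 8.95 and 8.87, in LR3 at 8.94, 8.97 and 8.82, in HR7 at 10.90, 10.90 and 10.68, and in LR7 at 10.88, 11.62 and 10.12. It rose by 1.93 (adjusted p = 0.000276), and the 3 LR7 pools were spread more than those of any other group. SLC2A1, the glucose transporter GLUT1, rose by 0.72 (adjusted p = 0.0366), with LR3 pool 1 (10.11) above all pools of day 7. HK3 rose by 0.77 and ENO3 by 0.75. HK3 was dim, at 5.77 to 6.19 in the pools of day 3 and 6.26 to 7.36 in those of day 7, beside array medians of 6.64 to 6.77. Of 12 genes of gluconeogenesis and glycogen, 3 rose and 2 fell, among them PYGL, a glycogen phosphorylase, by 1.44 and GBE1, the glycogen branching enzyme, by 0.57, while G6PC3 fell by 0.54. Of 6 genes of the pentose phosphate path, PGD and TALDO1 rose (0.41 and 0.31) and RPIA fell by 0.47.

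**Figure D5:**
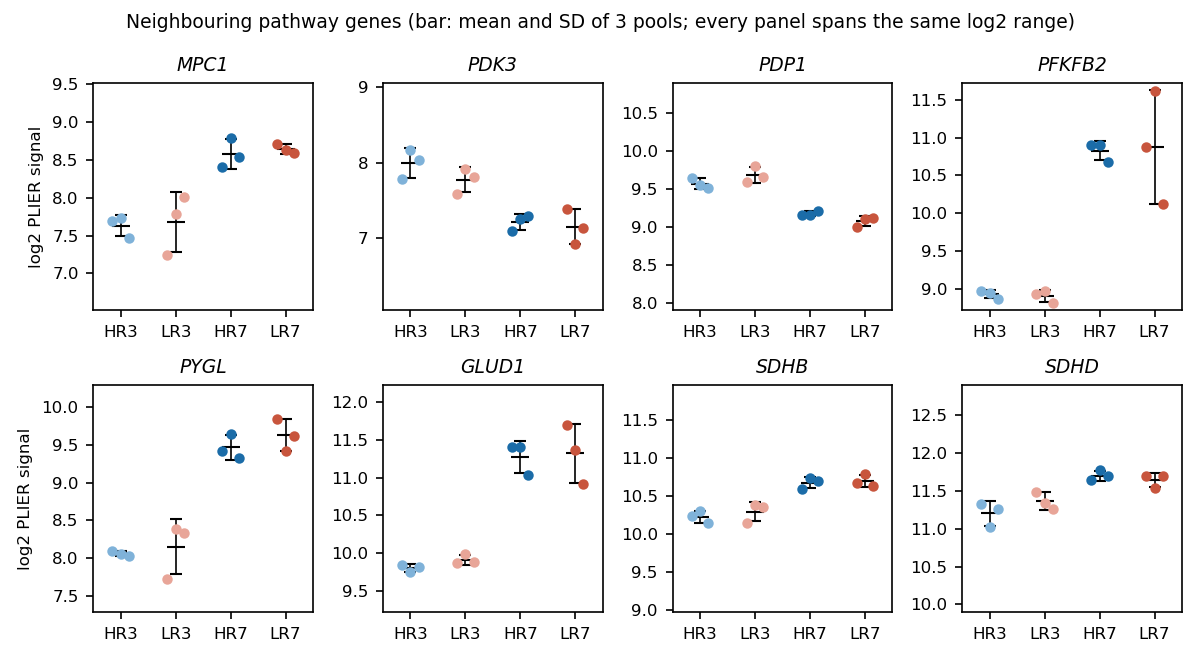
Log2 PLIER signal of 8 neighboring pathway genes in each of the 3 pools of HR3, LR3, HR7 and LR7, with bars for the mean and SD and the same span on every vertical axis. MPC1, PFKFB2, PYGL, GLUD1, SDHB and SDHD are higher and PDK3 and PDP1 lower in the pools of day 7.

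Markers of other cells moved with the day in the same pools. Of all probe sets 12.5% rose and 14.0% fell over both groups, and 5.74% rose in HR and 6.24% in LR. Of 5 neutrophil markers 3 were measured (S100A8, S100A9 and S100A12), all rose in HR and in LR, and their summed linear signal was 308 to 445 in HR3, 446 to 945 in LR3, 6630 to 12700 in HR7 and 3520 to 5810 in LR7. Of 3 measured macrophage markers 2 rose over both groups, with sums of 768 to 837, 532 to 1050, 1550 to 2690 and 1260 to 1740. Of 4 measured squamous epithelium markers 3 rose, with sums of 2590 to 4100 in HR7 and 448 to 588 in LR7 beside 202 to 347 in HR3 and 161 to 373 in LR3, and with KRT14 and DSC3 below the array median in all 12 pools. Of 7 T and NK cell markers 4 fell, and of 10 stroma markers 3 fell. Of 8 markers of uterine epithelium 7 lay above the array median in all 12 pools, all but KRT8, 1 fell (CDH1), and their sums were 26900 to 29600, 26500 to 27200, 25300 to 30900 and 21700 to 24900. Of the endometrial identity genes ESR1, PGR and HOXA10 were below the array median in all 12 pools. The part of these cells in the changes of the 35 genes was not tested, and in brushed tissue fewer cells of a type and less RNA per cell cannot be told apart.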

How the data were processed

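Deposited values are log2 signals, 1 per probe set and array, which the authors estimated by PLIER (Expression Console) from arrays scaled globally in GCOS 1.1.1. They run from 0 to 14.07 with array medians of 6.64 to 6.77, and were used as deposited. The number of arrays limits their precision. Groups came from the sample records. Of 24128 probe sets, 112 controls were left out. The platform annotation gave 13292 of the other 24016 1 symbol, 86 several and 10638 none, and genes were named from probe sets with 1 symbol only.

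Differences were estimated in limma 3.58.1 (R 4.3.3) with 1 mean per group, all 12 pools and no filter, so that every member was tested, with Benjamini-Hochberg adjustment within each of 7 comparisons. The study instead kept present probe sets with a standard deviation of at least 0.2 and fitted a mixed model. That filter, with a signal above the array median standing in for present calls, was an alternative, as were looser thresholds, array weights, an intensity trend, joint adjustment, a spiked-control covariate, the pool number as a block and each pool left out. The fit was tested on simulated data with noise drawn independently for each probe set and pool. Shifts shared by a whole pool were not simulated. Tables and plots were made with Python 3.11.15, pandas 2.3.3, numpy 2.4.6 and matplotlib 3.10.9.

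The members, gene lists and marker lists were chosen with earlier results of these data known. Named in the text are up to 12 members in each direction with the largest change among those that passed for the day, the 5 with the lowest p in each receptivity comparison, the enzymes of regulated steps, GAPDH and isoenzyme pairs. Genes added outside this rule, chosen after their values were seen, complete the account of the members. Promoter motifs were not searched, and no genome was used. Of the cell type markers, lists for ciliated epithelium, smooth muscle, endothelium, B and plasma cells, red blood cells and dividing cells were counted too. Of these, 2 genes of ciliated epithelium fell, 1 of smooth muscle and 1 of endothelium rose, none of B and plasma cells or red blood cells passed, and of dividing cells 1 rose and 2 fell over both groups. Of all probe sets 12.5% rose and 14.0% fell there.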

Additional observations from a re-analysis of the deposited data

How the results depend on the processing

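No member passed between HR and LR or in the interaction under any alternative run. Members higher at day 7 in HR numbered 7, and 13 at an unadjusted p under 0.05, 12 at an adjusted p under 0.16 and 3 to 7 with 1 pool left out. Members lower in HR numbered 0, and 2 at either looser threshold and 1 with array weights. Members higher in LR numbered 8, and 16 at either looser threshold, 0 when only the compared groups were fitted, 0 with the dap covariate and 2 to 9 with 1 pool left out. Members lower in LR numbered 0, and 2 with the study's filter, with brighter probe sets only and at either looser threshold, 1 with an intensity trend or with 16 added before log2, and 0 to 1 with 1 pool left out. Over both groups 14 were higher, and 7 with the dap covariate and 12 to 14 with 1 pool left out. There 3 were lower, and 0 with the dap covariate or with adjustment over the 7 comparisons together, and 2 to 3 with 1 pool left out. The cause was not tested. Averaging all probe sets of a gene turned SUCLA2 in LR to -0.51 and PDHB over both groups to -0.44, since their dim probe sets scatter or fall, and ended the calls of PC in HR (0.50), LR (0.35) and over both groups (0.43) and of SUCLA2 in HR (0.87) and over both groups (0.18). Of the other values of named members, 1404 kept sign and side of the threshold, 126 lost the call and 1 gained it. A further 16 that were not called changed sign (PFKP and PKM for the day, and GPI, ACO1, PKM and PDK4 in the interaction). The 1404 include results that were not called in the main fit, such as all of receptivity and the interaction. They do not measure how stable the calls are, since only called results could be among the 126.

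The pool numbers 1 to 3 recur in all groups, and same-numbered pools had residual correlations of -0.134 to 0.17. Between the days they were -0.016, 0.035 and -0.046 in HR and 0.062, 0.056 and 0.17 in LR. Such correlations cannot show whether same-numbered pools held the same animals. Pools were not paired in the main fit. With the number as a replicate block, 6 members were higher in HR, 6 in LR and 14 over both groups, where 2 were lower. Of all probe sets, 2083, 2161 and 5811 passed in place of 2686, 2749 and 6360. The whole-table counts of HR and LR changed to 5951 and 6350 at an adjusted p under 0.16, that of HR to 4842 with array weights, and that over both groups to 10129 at an adjusted p under 0.16, 3752 with joint adjustment and 3293 with the dap covariate, which left 26 in LR. Leaving out 1 pool, they ranged from 1009 to 2780 in HR, 1163 to 2810 in LR and 4995 to 6099 over both groups. With 3 pools a group, the intervals given show what could be resolved.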
